A study of Mus musculus with 4 samples.

Results

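The simple epithelial keratins *Krt7*, *Krt8*, *Krt18*, *Krt19* and *Krt23* were followed in single luminal cells of the mouse mammary gland. They were taken from the table of single cell values by gene symbol, as 5 of its 52636 rows, and each of the 5 symbols matched 1 row. The cells came from mice aged 6 weeks of the C57BL/6N strain, and both genotypes carried MMTV-Cre, a Cre recombinase under a viral promoter that is active in mammary epithelium. The control (WT) was *Erbb3*+/+;MMTV-Cre and the mutant was *Erbb3* V943R/V943R;MMTV-Cre, in which the receptor ERBB3 carries a substitution in the interface through which it activates its partners. For each genotype the thoracic and abdominal glands of 3 mice were pooled, enriched for epithelium and sorted for luminal cells, and each pool gave 2 droplet libraries. The letters A and B only name the libraries of a pool and pair nothing across genotypes. Each genotype was therefore 1 pool of mice, so no test between genotypes was possible, and the libraries of a pool show technical spread only.

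Keratins form the intermediate filaments of epithelial cells. A filament is built from pairs of 1 type I and 1 type II chain, and single-layered epithelia such as the mammary lumen use *Krt8* (type II) with *Krt18* (type I) as their founding pair. *Krt7* is a second type II chain of ductal and glandular epithelia, *Krt19* is a short type I chain that lacks most of the tail domain, and *Krt23* is a less abundant type I chain. Keratin genes lie in a type II cluster and a type I cluster on separate chromosomes, with *Krt18* as the type I gene that sits beside *Krt8* in the type II cluster.

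A library held 6849 to 9627 cells, 18638 in WT and 13801 in the mutant. Molecules were counted by their unique molecular identifiers (UMIs, 1 for each mRNA molecule that was captured), of which a library held 30019745 to 38009351, with a median of 3154 to 4027 per cell. Levels are given in counts per 1000000 UMIs (CPM), summed over cells. The kit counts molecules at their 3′ ends, so the levels of different keratins can be set side by side without a division by length, although capture may differ from one 3′ end to another. Changes between genotypes are log2 ratios of CPM, mutant over WT, with 95% intervals that cover counting error only. The authors labelled clusters 1 and 2 as luminal progenitor (LP), cluster 3 as luminal intermediate (LI), clusters 4 to 11 as mature luminal (ML) and clusters 12 and 13 as rare. *Erbb3* was at 60.9 and 63.3 CPM in the WT libraries and at 29.8 and 30.8 CPM in the mutant libraries. These 3′ counts do not read the substitution itself. *Krt5*, which marks basal cells, had 90 UMIs in all WT cells and 78 in all mutant cells. The summed level of the 5 LP markers lay between 3758 and 4268 CPM in LP cells and between 70.1 and 75.8 CPM in ML cells, and that of the 6 ML markers between 878 and 959 CPM in LP and between 7495 and 8092 CPM in ML cells. In all, 511 cell barcodes occurred in more than 1 library, and any pair of libraries shared 71 to 111 of them.

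Of the 5 keratin genes, 3 lie on chromosome 15 of GRCm38 and the others on chromosome 11, by the GENCODE annotation. *Krt7* (ENSMUSG00000023039) spans 101411043 to 101430313 on the plus strand, and *Krt8* (ENSMUSG00000049382) spans 101996698 to 102004482 on the minus strand. *Krt18* (ENSMUSG00000023043) spans 102028180 to 102032027 on the plus strand. The starts of *Krt8* and *Krt18* face each other across 23697 bases, with *Krt7* a further 566384 bases from *Krt8*. *Krt23* (ENSMUSG00000006777, 99477974 to 99493137) and *Krt19* (ENSMUSG00000020911, 100140810 to 100148665) both lie on the minus strand of chromosome 11, 647672 bases apart.

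The upstream sequences of *Krt8*, *Krt18* and *Krt23* are printed because the first 2 are neighbours whose levels were related differently to genotype, and the third had the opposite distribution over the luminal classes. The RefSeq promoter table (GRCm38.p6) held entries for *Krt7*, *Krt8*, *Krt18* and *Krt23* but not for *Krt19*. Each run shown is 5′ to 3′ on the strand of its gene and ends just before the first exon that GENCODE gives. No letter is in capitals, because none of the motifs searched for occurred in these runs.
Krt8, GRCm38.p6 chr15:102004483-102004592, minus strand: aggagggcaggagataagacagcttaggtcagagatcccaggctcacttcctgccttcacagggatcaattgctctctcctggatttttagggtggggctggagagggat
Krt18, GRCm38.p6 chr15:102028030-102028179, plus strand: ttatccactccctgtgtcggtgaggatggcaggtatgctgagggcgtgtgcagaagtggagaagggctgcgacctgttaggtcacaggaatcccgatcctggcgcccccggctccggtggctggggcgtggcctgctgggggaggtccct
Krt23, GRCm38.p6 chr11:99493138-99493287, minus strand: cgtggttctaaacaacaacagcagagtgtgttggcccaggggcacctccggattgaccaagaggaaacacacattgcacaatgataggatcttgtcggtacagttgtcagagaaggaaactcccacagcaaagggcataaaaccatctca

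The 250 bases before the RefSeq start of each gene were searched on both strands for 5 short motifs. The TATA box (TATAAA) occurs in 12.4% of the 32851 promoters of the table, the CCAAT box (CCAAT) in 33.8% and the GC box (GGGCGG) in 32.7%. The AP-1 motif (TGANTCA) occurs in 6.75% of them and the ETS motif (CCGGAAG) in 6.91%. *Krt7* held 4 GC boxes, at -141, -128, -56 and -24 from its RefSeq start, and no match to the other motifs. The annotations place the starts differently, and 162 of the 250 bases searched for *Krt7* lie in GENCODE exons of the gene, in the stretch that holds the GC boxes. For *Krt8*, *Krt18* and *Krt23* 140, 36 and 17 of the 250 bases lie in GENCODE exons. *Krt8*, *Krt18* and *Krt23* held none of the 5, which says only that these letters are not in this window. Their GC contents over these bases were 58.0%, 60.4% and 52.8%, against 66.0% for *Krt7*.

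Over all cells, *Krt19* and *Krt18* made up most of the keratin UMIs. *Krt19* was at 10669 and 10952 CPM in WT libraries A and B and at 10916 and 11133 CPM in mutant libraries A and B. *Krt18* was at 8526 and 8546 CPM in WT and at 8808 and 8771 CPM in the mutant. Both type I keratins were thus far above the type II keratins in every library. *Krt7* was at 2164 and 2192 CPM in WT and at 2352 and 2361 CPM in the mutant. *Krt8* was at 858 and 833 CPM in WT and at 1310 and 1138 CPM in the mutant. *Krt23* was at 18.2 and 17.2 CPM in WT and at 19.1 and 20.1 CPM in the mutant. The order *Krt19*, *Krt18*, *Krt7*, *Krt8*, *Krt23* was the same in all 4 libraries, and no neighbours in it overlapped. The founding partners were thus counted at unequal numbers of UMIs, with 0.0989 *Krt8* UMIs for each *Krt18* UMI in WT and 0.139 in the mutant. Capture may differ between their 3′ ends, so these are not ratios of the mRNA molecules in a cell.

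The luminal classes differed in all 5 keratins. By a rule of a 1.5-fold difference in the same direction in each of the 4 libraries and at least 50 UMIs, 5 of the 5 keratins differed between LP and ML cells, where 28.3% of the 17024 genes tested did. Since the classes had been made from the same expression values, this is a description. *Krt7*, *Krt8*, *Krt18* and *Krt19* were lower in LP and *Krt23* was higher. *Krt7* had the largest difference of the 4, at 488 CPM in LP and 2487 CPM in ML cells of WT. Over the 4 libraries it was 5.22-fold lower in LP, with a log2 difference of -2.38 (-2.41 to -2.35, SD 0.0662 over libraries). In LP libraries A and B *Krt7* was at 473 and 501 CPM in WT and at 495 and 533 CPM in the mutant. It was higher in the rare cells, at 822 and 871 CPM in WT and at 660 and 696 CPM in the mutant. How much of its LP level is background was not tested, so the fold may be one to background. *Krt19* was 2.82-fold lower in LP over the 4 libraries (log2 -1.50, SD 0.0403), and its WT levels were 4376 against 12140 CPM. *Krt8* was 2.23-fold lower over the 4 libraries (log2 -1.16), and its WT levels were 445 against 930 CPM. Taken singly, the libraries gave log2 differences of -1.05 (WT A), -1.08 (WT B), -1.32 (mutant A) and -1.23 (mutant B). The genotypes did not overlap here, so the SD of 0.129 for *Krt8* also holds their difference. *Krt18* was the most even of the 4, at 5032 CPM in LP and 9150 CPM in ML of WT. Over the 4 libraries it was 1.86-fold lower in LP (log2 -0.90, SD 0.0531). The difference between LP and ML was larger in each mutant library than in each WT library for *Krt7*, *Krt18* and *Krt19* too. Their SDs therefore hold more than the spread within a genotype.

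*Krt23* was the reverse of the others and was concentrated in LP cells. It was at 114 and 107 CPM in the LP cells of WT libraries A and B and at 117 and 105 CPM in those of the mutant. In ML cells it was at 1.05 to 1.14 CPM in all 4 libraries, from 63 WT and 48 mutant UMIs. The libraries of both genotypes were well apart between these classes, and as counted LP was 102-fold above ML (log2 6.67, SD 0.0797). A *Krt23* UMI was found in 22.3% (20.9% to 23.8%) of WT LP cells and 22.7% (21.2% to 24.2%) of mutant LP cells. The share in ML cells was 0.444% in WT, at a median of 3508 UMIs per cell, which lies below the 3.17% (0.872% to 7.93%) of the 126 WT rare cells at a median of 1922 UMIs, and is read as background. The ratio of LP to ML is therefore one to background.

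The order of *Krt18* and *Krt19* was reversed in LP cells as a whole, most of which were in cluster 1. In cluster 2 *Krt19* stayed above *Krt18* in every library, at 3855 and 4351 against 3285 and 3519 CPM in WT and at 4071 and 4043 against 3605 and 3497 CPM in the mutant. In all LP cells *Krt18* was 48.1% of the keratin UMIs of WT and *Krt19* 41.9%, while in ML cells *Krt18* was 37.0% and *Krt19* 49.1%. *Krt7* was 4.67% of the keratin UMIs in LP and 10.1% in ML of WT, and *Krt8* was 4.26% and 3.76%. The 5 keratins together took 1.05% of all UMIs in LP, 1.91% in LI and 2.47% in ML cells of WT, and 1.06%, 2.04% and 2.65% in the mutant. LI cells therefore lay between the other classes in their total keratin.

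**Figure D1:**
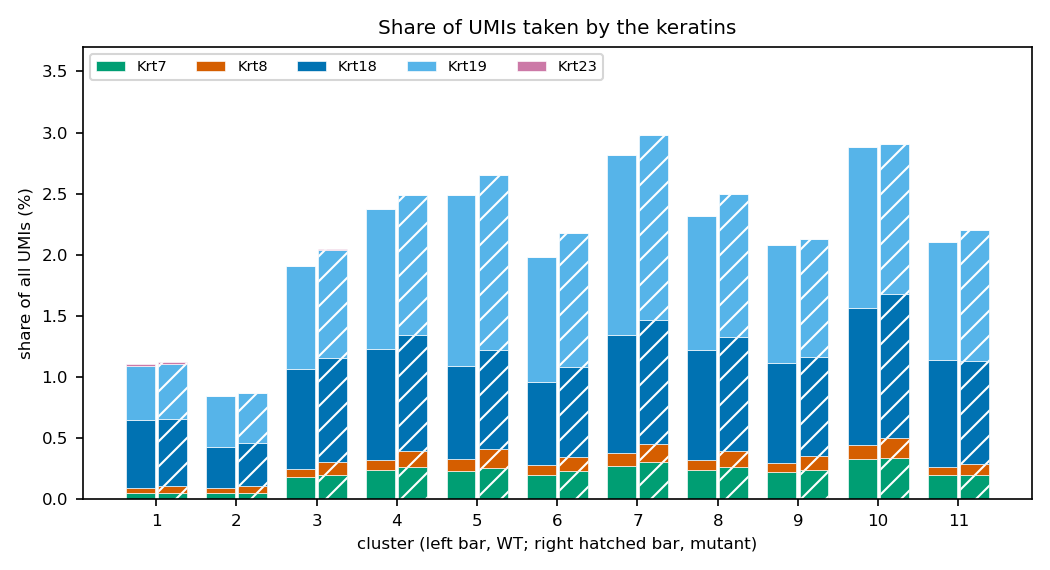
Share of all UMIs (vertical axis, %) taken by each of the 5 keratins, stacked, in clusters 1 to 11 (horizontal axis), with WT as the left bar and the mutant as the right, hatched bar of each pair. The keratins took 0.847% of UMIs in the WT cells of cluster 2 and up to 2.98% in the mutant cells of cluster 7, with *Krt18* and *Krt19* making up most of each bar.

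Each keratin was intermediate in LI cells, at a different point between LP and ML. In WT, *Krt18* was 75.0% of the way from its LP level to its ML level, *Krt7* 66.8%, *Krt19* 52.2% and *Krt8* 47.0%. *Krt23*, which runs the other way, was 66.5% of the way. In the mutant *Krt18* was 77.3% of the way, *Krt7* 64.5%, *Krt19* 53.7% and *Krt23* 75.5%. *Krt8* was 44.3% and 49.6% of the way in WT libraries A and B against 56.5% and 51.8% in mutant libraries A and B, without overlap. *Krt18* (74.8% and 75.2% against 77.9% and 76.7%) and *Krt23* (67.2% and 65.9% against 81.8% and 68.5%) did not overlap either, while *Krt7* and *Krt19* did. In LI cells the summed LP markers were at 1208 and 1316 CPM in WT and at 990 and 1060 CPM in the mutant. The summed ML markers were at 5332 and 5237 CPM in WT and at 5454 and 5669 CPM in the mutant. Their part in these shifts was not tested. Of the LI cells, 49.5% had doublet scores in the highest 6% of all cells, against 9.58% or fewer in any other cluster, and LI cells had a median of 6192 UMIs. Whether droplets with an LP and an ML cell add to the intermediate keratin levels was not tested.

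Among the 11 luminal clusters, cluster 10 of ML had the highest level of 3 keratins. *Krt7* was at 3183 and 3303 CPM there in WT libraries A and B, above the 2769 and 2700 CPM of cluster 7, the next in order. *Krt18* was at 11037 and 11307 CPM in cluster 10 against 9723 and 9557 CPM in cluster 7. *Krt8* was at 1201 and 1209 CPM in cluster 10. For *Krt8* the next in order, clusters 5 (986 and 1087 CPM) and 7 (1088 and 989 CPM), overlapped and did not differ beyond their spread. *Krt19* had another leader, cluster 7, at 14707 and 14831 CPM, ahead of cluster 5 at 13551 and 14403 CPM. These leading clusters were the same in each mutant library. The lowest levels of these 4 keratins lay in the LP clusters 1 and 2. *Krt23* decreased from cluster 1 (129 and 121 CPM) through cluster 2 (72.3 and 57.4 CPM) to cluster 3 (38.3 and 37.4 CPM), without overlap.

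**Figure D2:**
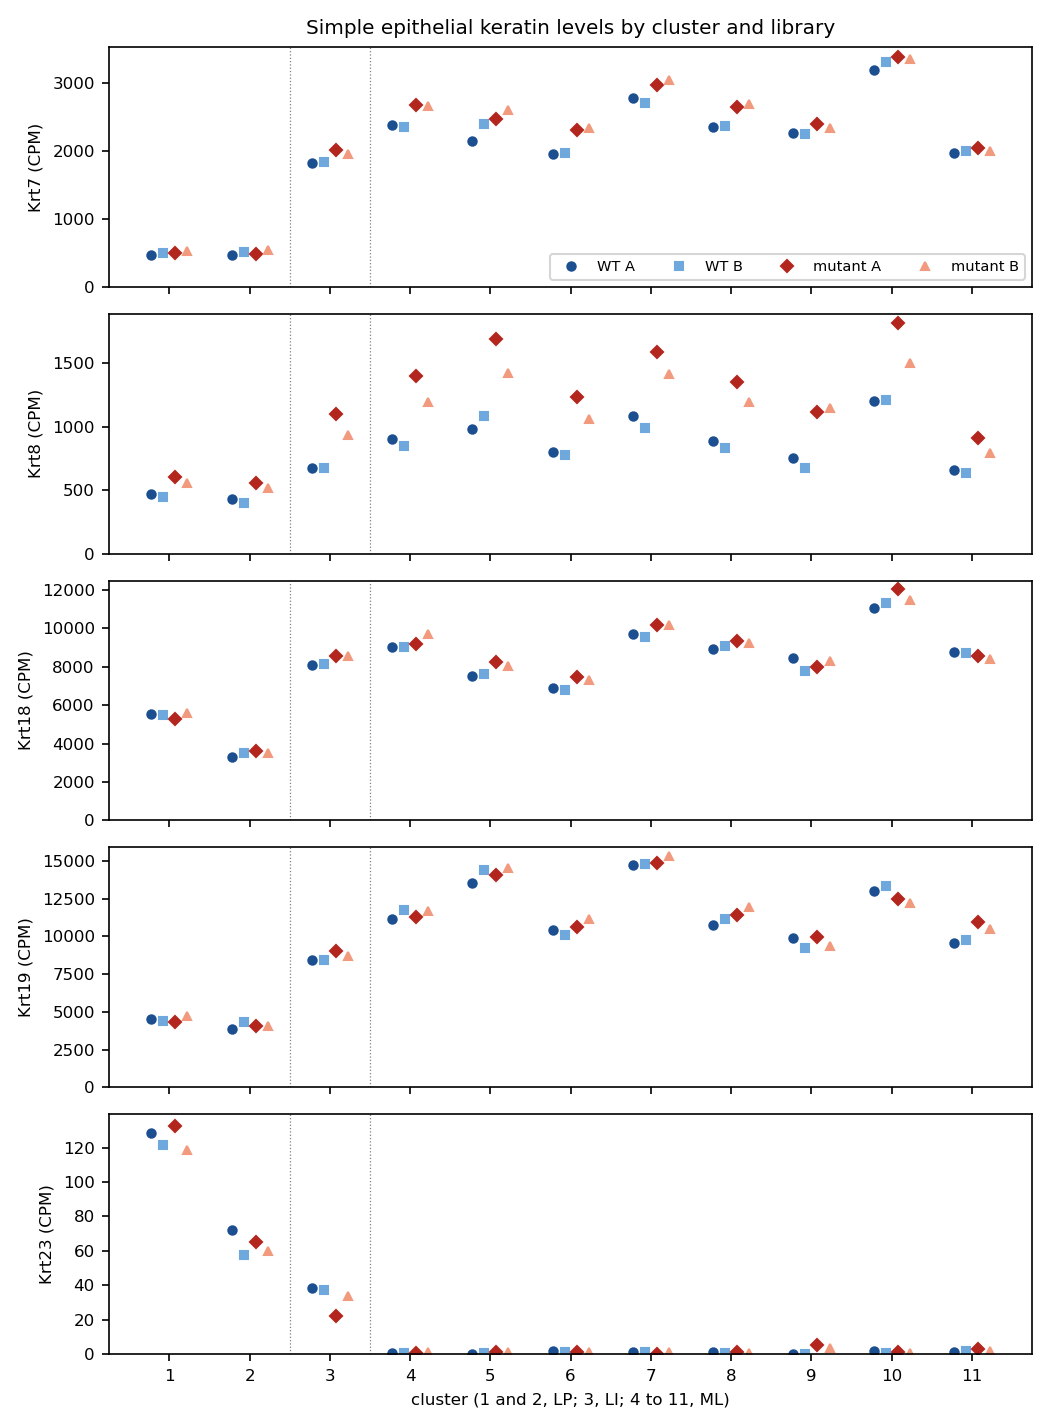
Level of each keratin (vertical axes, CPM, each from 0) in clusters 1 to 11 (horizontal axis) with 1 point per library, and dotted lines between LP, LI and ML. The mutant points of *Krt8* lie above both WT points in every cluster, while those of *Krt18* and *Krt19* lie close to WT, and *Krt23* is near 0 in clusters 4 to 11.

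The LP clusters differed from each other mainly in *Krt18* and *Krt23*. Cluster 2 had 1.97-fold less *Krt23* than cluster 1 (log2 -0.97, SD 0.109 over libraries), and *Krt23* was the only keratin past the 1.5-fold rule in every library, where 8.9% of genes were. *Krt18* was 1.58-fold lower in cluster 2 (log2 -0.66) but short of 1.5-fold in mutant library A (-0.55). For *Krt7* the log2 difference between these clusters was -0.0013 (-0.074 to 0.071). In ML, cluster 11 had less *Krt8* than the other clusters of its class, at 659 and 635 CPM in WT and 911 and 791 CPM in the mutant, 1.73-fold lower with all libraries summed. Within the libraries this log2 difference lay between -0.60 and -0.74, and the sum also holds the unequal share of mutant cells in cluster 11. It was the only keratin past the rule there, as were 5.36% of genes. Cluster 6 had none past the rule against the ML clusters other than 5 and 6, where 10.0% of genes were, with *Krt18* 1.38-fold and *Krt7* 1.27-fold lower.

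Of the 5 simple epithelial keratins, *Krt8* differed most between the genotypes. Over all cells its log2 change was 0.53 (0.52 to 0.55), which is 1.45-fold, and the ratios of 1 mutant to 1 WT library lay between 0.41 and 0.65. In ML cells *Krt8* was at 945 and 917 CPM in WT and at 1484 and 1292 CPM in the mutant. This was 1.49-fold (log2 0.57, 0.56 to 0.59), and both mutant libraries were above both WT libraries. In LI cells it was at 673 CPM in both WT libraries and at 1097 and 934 CPM in the mutant, 1.51-fold (log2 0.60, 0.55 to 0.65). In LP cells the difference was smaller, at 457 and 434 CPM in WT and 594 and 551 CPM in the mutant, 1.28-fold (log2 0.36, 0.30 to 0.42). Mutant library A exceeded mutant library B in each class. In LP this put *Krt8* above *Krt7* in both mutant libraries, whereas it was below *Krt7* in both WT libraries. The level of *Krt7* in LP was below that in the rare cells in every library, so this order is one against a level that may be background.

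The difference in *Krt8* was found in every luminal cluster. In 11 of 11 clusters both mutant libraries were above both WT libraries, with log2 changes from 0.35 in cluster 1 to 0.65 in cluster 9 and a median of 0.54. Weighting the mutant clusters by their WT shares left it at 0.51 over all cells. In 5 bins of ML cells by depth, the fold was 1.90 among the shallowest cells (606 to 2207 UMIs) and between 1.41 and 1.52 in the other bins. The processed pseudogene *Krt8-ps* (chromosome 7, 23357125 to 23358069) held 590 WT and 637 mutant UMIs (log2 0.34, 0.17 to 0.50). In ML cells it held 486 WT and 488 mutant UMIs, beside 52820 and 63212 of *Krt8*. The log2 change in ML cells with both genes summed was 0.57, which so few UMIs could hardly move. In the last 400 bases of the *Krt8* transcript, 0% of stretches of 50 bases were shared with another gene of the annotation. Summed levels of 7 genes that dissociation of tissue is known to induce moved with genotype too, at 17336 and 18019 CPM in the ML cells of WT and at 14276 and 14978 CPM in those of the mutant. In ML cells the summed levels of 5 fibroblast markers, 15.03 and 13.8 CPM in WT and 5.43 and 4.38 CPM in the mutant, and of 6 basal markers, 15.2 and 17.4 CPM and then 14.04 and 13.4 CPM, were lower in the mutant. Those of 6 immune markers (3.17 and 4.96 against 6.98 and 5.69 CPM) and of 4 proliferation genes (241 and 244 against 272 and 268 CPM) were higher. In LI cells the dissociation genes were at 19503 and 20736 CPM in WT and at 14753 and 15647 CPM in the mutant. The LP markers there were lower in the mutant (1208 and 1316 against 990 and 1060 CPM). The ML markers (5332 and 5237 against 5454 and 5669 CPM) were higher there. So were the basal markers (30.8 and 31.9 against 40.4 and 40.2 CPM) and the proliferation genes (103 and 74.6 against 128 and 139 CPM). In LP cells the dissociation genes were at 21965 and 22831 CPM in WT and at 17677 and 18025 CPM in the mutant. The LP markers there were lower in the mutant too (3991 and 4268 against 3758 and 3859 CPM), and the other lists overlapped between genotypes in LP. The part of these lists in the *Krt8* difference was not tested.

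By the rule of 1.5-fold, at least 50 UMIs and no overlap of libraries between genotypes, *Krt8* was called higher in LI, where 3.86% of genes were called. None of the 5 keratins was called over all cells, in LP or in ML, where 4.41%, 2.83% and 4.43% of genes were. *Krt8* lay close to this limit, so the call turned on single libraries. In LI it was lost without mutant library A (log2 0.47) or with trimmed mean of M values (TMM) normalisation factors (0.58), in ML it would be made without WT library A (0.59) or without mutant library B (0.67), and over all cells without mutant library B (0.63). With a lower limit, at which the larger level had to be 25% above the smaller, *Krt8* was called higher over all cells (background 16.5%), in LP (12.1%), in LI (15.7%) and in ML (16.9%). Among the 9692 genes tested in ML cells that had at least 1000 UMIs over all cells, 81 had a larger log2 change than *Krt8*. The median log2 change was 0.0034 over all genes tested in ML and 0.067 over the 5 keratins.

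**Figure D3:**
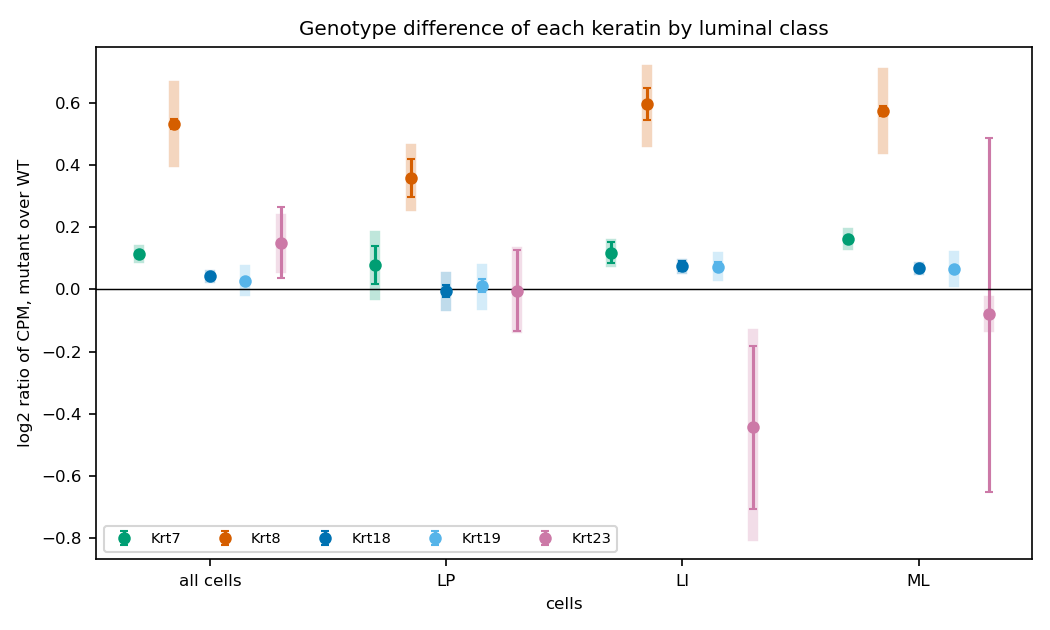
Log2 ratio of CPM, mutant over WT (vertical axis), of each keratin over all cells and in LP, LI and ML cells (horizontal axis). Points are summed values with 95% counting intervals as bars, and the pale bands span the 4 ratios of 1 mutant to 1 WT library. *Krt8* lies highest in all 4 sets of cells, and *Krt23* in LI lies lowest.

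The other keratins differed less between genotypes. *Krt7* was 1.12-fold higher in mutant ML cells, at 2470 and 2503 CPM in WT and 2761 and 2802 CPM in the mutant (log2 0.16, 0.15 to 0.17). It was 1.09-fold higher in LI cells, and in LP cells its libraries overlapped between genotypes. Its level was higher in the mutant in 11 of 11 clusters, most in cluster 6 (log2 0.24), although in 3 of them the counting interval included 0. *Krt18* was 1.05-fold higher in ML (9135 and 9163 against 9603 and 9573 CPM) and overlapped between genotypes in LP (log2 -0.0044, -0.024 to 0.015). *Krt19* was likewise 1.05-fold higher in ML, at 11955 and 12308 CPM in WT and 12512 and 12883 CPM in the mutant, and its LP libraries overlapped. The log2 change of *Krt19* in ML was 0.066 as counted and 0.031 with the mutant clusters weighted by their WT shares. The same weighting gave 0.12 for *Krt7* and 0.057 for *Krt18*. The part of cluster make-up in these changes was not tested. The differences of these 3 keratins were small beside that of *Krt8*, and for *Krt18* and *Krt19* they changed sign between clusters.

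*Krt23* overlapped between genotypes in LP cells (log2 -0.0041, -0.14 to 0.13) and was lower in mutant LI cells. There it was at 38.3 and 37.4 CPM in WT and at 22.1 and 33.9 CPM in the mutant (log2 -0.44, -0.71 to -0.18), from 280 and 216 UMIs. Both mutant libraries were below both WT libraries and the difference met the limit of 25%, but without mutant library A it was -0.16, short of that limit. The summed LP markers of LI cells were lower in the mutant too, at 1208 and 1316 against 990 and 1060 CPM. The summed ML markers were higher, at 5332 and 5237 against 5454 and 5669 CPM. Whether the *Krt23* difference goes with them was not tested. Over all cells *Krt23* was 1.11-fold higher in the mutant, and weighting the mutant clusters by their WT shares turned this to a log2 change of -0.089.

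Among the 5 keratins, the ratio of type II to type I UMIs was higher in the mutant. It leaves out other type II keratins such as *Krt4* and *Krt6a*, and it largely restates the *Krt8* difference. In ML cells *Krt8* was 3.76% of the keratin UMIs in WT and 5.23% in the mutant, and *Krt7* was 10.1% and 10.5%. For each UMI of *Krt18*, *Krt19* or *Krt23* there were 0.157 UMIs of *Krt7* or *Krt8* in WT library A and 0.155 in WT library B, against 0.185 in mutant library A and 0.176 in mutant library B. In ML cells these ratios were 0.162 and 0.159 against 0.192 and 0.182, and in LP cells 0.0985 and 0.0975 against 0.117 and 0.111. The *Krt8* to *Krt18* ratio in ML cells was at most 0.103 in a WT library, against 0.155 in mutant library A and 0.135 in mutant library B. Neither measure overlapped between genotypes in any of the 3 classes. All 5 keratins together took 2.22% and 2.25% of UMIs in WT and 2.34% in both mutant libraries.

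At equal depth the difference in *Krt8* was also seen in the counts per cell. Cells were compared on 1000 randomly drawn UMIs each, without the 297 cells that had fewer. Of the cells so drawn, 44.5% and 45.8% of WT ML cells had no *Krt8* UMI, against 29.1% and 34.4% of mutant ML cells. Cells with 4 or more *Krt8* UMIs made up 3.10% and 2.55% of WT and 9.75% and 5.86% of mutant ML cells. The share of ML cells with a *Krt8* UMI was 54.8% (54.0% to 55.7%) for WT cells and 68.2% (67.3% to 69.2%) for mutant cells, or 87.0% and 94.0% before thinning. In the rare cells it was 13.5% and 13.6% after thinning. The difference thus lay both in cells without a molecule and in cells with several. *Krt18* and *Krt19* were found in over 99% of ML cells of either genotype after thinning (99.8% each in WT), and *Krt7* in 86.0% and 88.9%.

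**Figure D4:**
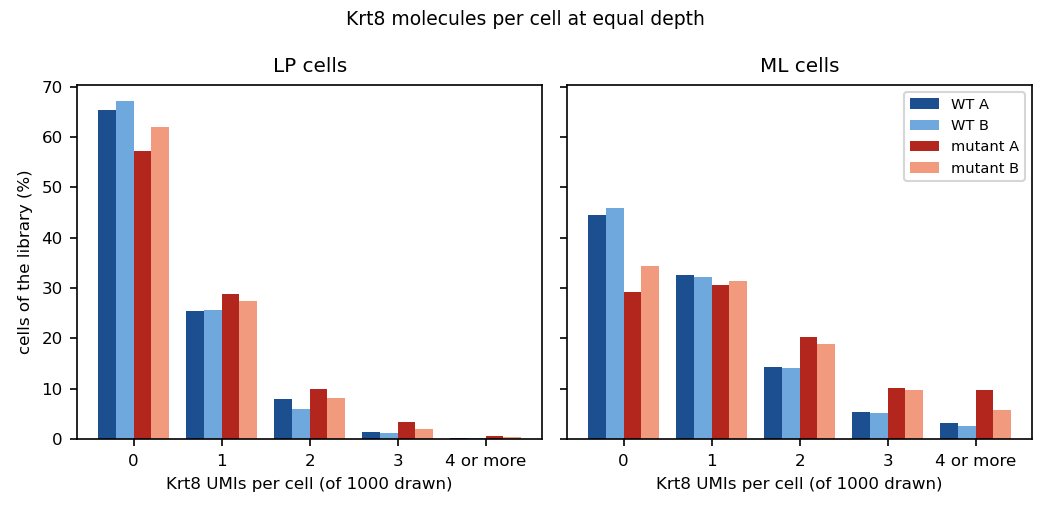
Share of cells (vertical axis, % of the cells of a library) with 0, 1, 2, 3 or at least 4 *Krt8* UMIs (horizontal axis) after thinning to 1000 UMIs per cell, in LP (left) and ML cells (right), with 1 bar per library. The mutant bars are the lower ones at 0 UMIs and the higher ones from 2 UMIs upwards in both classes.

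Keratins were also counted in the rare clusters 12 and 13, which the authors kept apart from the luminal classes. In WT, *Krt7*, *Krt8*, *Krt18* and *Krt19* stood at 36.3%, 36.8%, 43.6% and 31.7% of their luminal level in cluster 12, and at 40.3%, 43.2%, 42.0% and 37.9% in cluster 13. In the mutant they stood at 5.85% to 7.96% in cluster 12 and at 34.8% to 38.6% in cluster 13. Cluster 12 held 76 cells over both genotypes. Its mutant values rested on 13, 5, 49 and 60 UMIs in the same order, and its WT values on 89, 35, 419 and 386. In the rare cells there were 0.0853 *Krt8* UMIs per *Krt18* UMI in WT library A, 0.101 in WT library B, 0.124 in mutant library A and 0.154 in mutant library B, and over all cells 0.101, 0.0974, 0.149 and 0.130. Whether free RNA or doublets supplied these molecules was not tested.

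Within a cluster, cells with more of one keratin tended to have more of another, with low correlations at the depth used. These values describe cells of 1 pool that share libraries and depth limits, and carry no test. At 1000 UMIs per cell the Pearson correlation of *Krt18* and *Krt19* had a median of 0.27 over WT clusters and 0.26 over mutant clusters. That of the partners *Krt8* and *Krt18* was 0.18 and 0.26, and that of *Krt7* and *Krt8* 0.14 and 0.18. At 2000 UMIs per cell, which leaves out 5390 cells, the *Krt8* and *Krt18* values were 0.31 and 0.38. The correlations thus depend on the UMIs drawn and the cells kept, and do not give the size of the covariation. WT and mutant values come from different *Krt8* levels and are not compared. The median variance over WT clusters was 3.43 times the mean for *Krt19*, 2.14 for *Krt18*, 1.48 for *Krt7* and 1.20 for *Krt8*. This measure rises with the mean level, so it does not rank the keratins by how unevenly cells express them.

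Over the 11 WT clusters, the genes most like each keratin were found among 4761 genes with at least 50 CPM in any cluster, by the Pearson correlation of log2(CPM + 1). The clusters share libraries, so these values are descriptions. *Krt7* was most like *Lgals3* (r = 0.990), *Avpi1* (0.990) and *Mboat1* (0.989). *Krt8* was most like *Zdhhc12* (0.964), *Krt19* (0.961) and *Cdkn1a* (0.956), and was less like its neighbour *Krt18* (0.839). *Krt18* was most like *Rnf208* (0.988), *Rhoc* (0.974) and *Nfil3* (0.968). *Krt19* was most like *Tmem30b* (0.984), *Grhpr* (0.969) and *Pomgnt1* (0.969). *Krt23* was most like *Hey1* (0.996), *Chil1* (0.995) and *Cryab* (0.995), and ran against the other keratins with r between -0.71 and -0.87. In the mutant pool the r of these most alike genes lay between 0.900 (*Rnf208* with *Krt18*) and 0.991 (*Cryab* with *Krt23*). *Hey1* was at 0.909 with *Krt23*, and *Zdhhc12* at 0.910 with *Krt8*, below *Krt7* (0.943). The order given is therefore that of the WT pool only.

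The neighbourhood of *Krt8* was examined since *Krt18* beside it differed so little between genotypes. Of the 26 genes within 500 kb of *Krt8* tested in ML cells, 10 were keratins, *Krt8* and *Krt18* included. By the 1.5-fold rule 6 of these 10 were higher in the mutant and none lower, all on the *Krt7* side of *Krt8*, where 4.43% of all genes tested in ML cells were called. *Krt6a*, a type II keratin of stressed and ductal epithelium, was at 54.4 and 70.5 CPM in WT and at 133.0 and 133.4 CPM in the mutant (log2 1.08). Reads of *Krt6a* may be shared with its close copy *Krt6b*, so its value is uncertain. *Krt4*, a type II keratin of stratified mucosa, was at 71.2 and 74.1 CPM in WT and 130.0 and 135.3 CPM in the mutant (log2 0.87). *Krt79* (0.75), *Krt77* (0.74) and *Krt78* (0.60) were higher as well, as was *Krt90* (0.75) from 42 WT and 57 mutant UMIs. *Krt5* (-0.31) and *Krt1* (0.041) lie on the same side and were not called. None of the 16 other genes was called, with a median log2 change of -0.0099 and a range from -0.22 (*Csad*) to 0.29 (*Tns2*), both named after their values had been seen. *Krt18* (0.067) was within that range. Every tested gene on the *Krt7* side was a keratin, and all 16 other genes lay on the *Krt18* side. Position and gene family therefore cannot be told apart here.

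**Figure D5:**
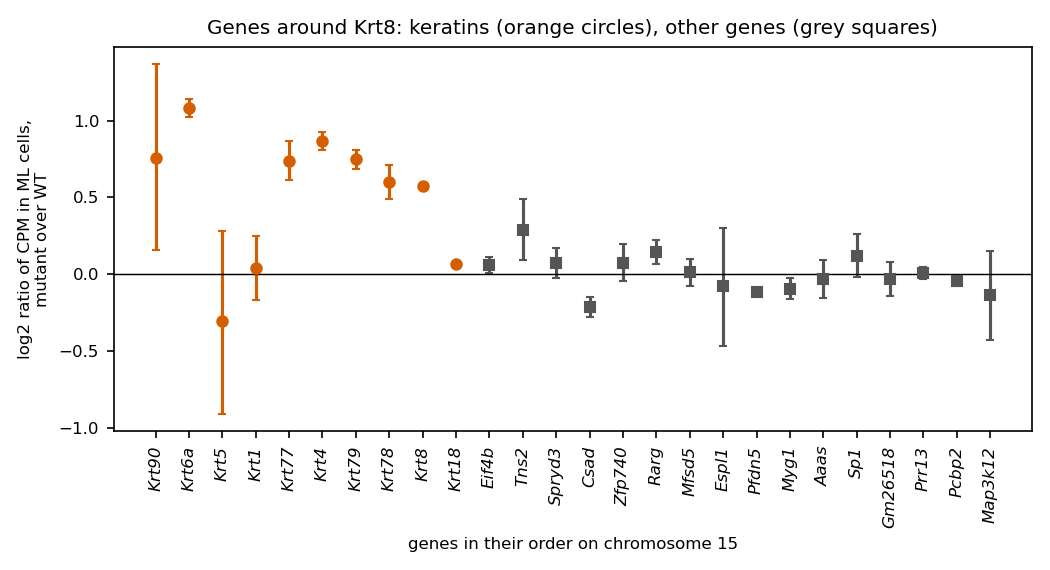
Log2 ratio of CPM in ML cells, mutant over WT (vertical axis), of the 26 genes within 500 kb of *Krt8*, in chromosome order and not to scale (horizontal axis), with 95% counting intervals. The keratins from *Krt77* to *Krt8* lie between 0.57 and 0.87, and *Krt18* and the 16 genes that are no keratins lie between -0.22 and 0.29.

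Among all 49 other keratins of the table, 22 had enough UMIs over all cells, of which 7 were higher in the mutant and none lower, with a median log2 change of 0.17, where 4.41% of all genes tested were called and the median was 0.024. The 3 with the highest levels were *Krt4*, *Krt6a* and *Krt79*. *Krt13*, a type I mucosal keratin on chromosome 11, was at 8.31 CPM in WT and at 12.8 CPM in the mutant (log2 0.62). *Krt71* was called as well, from 1 WT and 72 mutant UMIs that came almost all from mutant library B (2.10 CPM, against 0.133 CPM in mutant A). Of these mutant UMIs, 68 were in LI cells and 4 in ML cells, so this call does not describe all cells. In LP over ML, 16 of the 22 keratins tested were past the rule, as were 28.3% of all genes, with 3 higher and 13 lower in LP. *Krt14* and *Krt17*, keratins of basal cells, and *Krt10* were the higher ones. The lower ones were *Krt1*, *Krt4*, *Krt6a*, *Krt13*, *Krt16*, *Krt20*, *Krt73*, *Krt77*, *Krt78*, *Krt79*, *Krt83*, *Krt86* and *Krt87*, with log2 differences from -3.12 (*Krt77*) to -1.20 (*Krt13*).

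Of a list of 20 genes whose products bind, anchor or chaperone keratin filaments, 19 were analysed. None was called over all cells or in ML (backgrounds 4.41% and 4.43%), with median log2 changes of 0.018 and -0.024. *Sfn* (934 CPM in WT and 884 in the mutant), *Hspb1* (457 and 397 CPM) and *Ywhaz* (229 and 235 CPM) had the highest levels. *Hspa8*, a chaperone, differed about as much as *Krt8*, at 100.6 and 91.9 CPM in WT and at 136.2 and 143.1 CPM in the mutant over all cells (log2 0.54). It was called higher in LP (0.59, background 2.83%) and was at 0.52 in LI and 0.50 in ML. *Dsc2*, a desmosomal cadherin, was called higher in LI (0.61, background 3.86%) and was at 0.37 over all cells and 0.41 in ML. Of 7 genes for other intermediate filaments, 6 had enough UMIs over all cells and none was called. *Lmna* was at 676 and 644 CPM, *Lmnb1* at 40.5 and 44.6 CPM and *Lmnb2* at 14.6 CPM in both genotypes. Between LP and ML, 8 of the 19 filament partners were past the rule, against 28.3% of all genes, with 5 higher and 3 lower in LP. The plakin *Ppl* (log2 1.43) and the plakophilin *Pkp1* (2.46) were higher in LP, as were *Pkp4* (1.04), *Hspb1* (0.90) and *Hspa8* (0.77), while *Dsp* (-0.76), *Dsc2* (-1.04) and *Dst* (-1.07) were lower. Of the other intermediate filament genes, 4 of the 6 tested were past the rule between LP and ML (background 28.3%). *Nes* (log2 6.01), *Vim* (4.27) and *Lmnb1* (1.93) were higher in LP, and *Des* was lower, with 1 UMI in all LP cells against 68 in WT and 79 in mutant ML cells.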

How the data were processed

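Luminal cells of WT and mutant mice were profiled with a 10× Chromium 3′ kit, and the submitters' processing notes name CASAVA 1.8, bcl2fastq 2.20, GSNAP and the build GRCm38. The authors deposited a signal per gene and cell, which is the UMIs of a cell scaled by 1 factor, with cluster and class made in Partek Flow. Within each cell, the ratio of every value to the lowest one above 0 was whole to within 0.00989, and these ratios were used as UMIs. All cells were used. UMIs were summed by library, class or cluster and divided by all UMIs of those cells.

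The 95% intervals of levels are exact Poisson intervals, those of log2 ratios come from the exact conditional binomial, and those of shares are Clopper-Pearson intervals. All cover counting error only. No count model was fitted, as each genotype was 1 pool. Scrublet in scanpy called 1 doublet, so it was not of use, and scores were used as an alternative. Fold rules and thinning (seed 1) were tested on simulated data.

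The members and lists were chosen with earlier results of these data known. Named were the 5 keratins, *Krt8-ps*, *Epcam*, *Krt5* and *Krt14* as checks, the 3 most alike genes per keratin, and, of other keratins, filament partners and other intermediate filaments, the 3 highest and those past the fold rule. Over WT and mutant cells *Epcam* was at 1806 and 1683 CPM and *Krt14* at 4.09 and 4.41 CPM. One of the filament partners, *Eppk1*, was not analysed here. Alternatives were leaving out each library, clusters or the shallowest 10% of cells, doublet scores, TMM factors, other denominators, means over cells, reweighted clusters, other fold and UMI limits and other thinning depths. Scripts ran in Python 3.11.15, using scanpy 1.11.5, scipy 1.17.1, pandas 2.3.3, matplotlib 3.10.9 and numpy 2.4.6.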

Additional observations from a re-analysis of the deposited data

Results flagged for a closer look

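*Krt18* was flagged because its difference between genotypes had opposite directions in different clusters. In cluster 11 both mutant libraries lay below both WT libraries (log2 -0.045), whereas in 7 clusters both lay above, most in cluster 6 (0.11). *Krt19* was flagged for the same reason, with both mutant libraries below in cluster 10 (-0.097) and above in 5 clusters, most in cluster 11 (0.14). These differences between clusters were not tested. In cluster 11 the mutant libraries had *Krt18* at 8576 and 8376 CPM against 8744 and 8723 CPM in WT, and *Krt19* at 10948 and 10472 CPM against 9574 and 9796 CPM.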

How the results depend on the processing

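No paired analysis was possible because the table carries no replicate number for a library and no test was made. Of 265 alternative values for 27 keratin results, 238 moved by less than the spread between libraries or the counting interval, 26 moved by more and 1, larger than its spread, was reversed. The sign changed in 15 of the 265, and in 14 of these the reported value was itself within its spread. They include *Krt19* over all cells, at 0.028 as reported and -0.0058 with TMM factors, and *Krt18*, *Krt19* and *Krt23* in LP. No alternative value of the genotype difference of *Krt8* changed sign or moved by more than its spread, although those without 1 library lie inside the range of library pairs by construction. The split of ML cells by depth, which is not counted here, gave 0.93 among the shallowest cells. The cause of the moves was not tested. *Krt23* over all cells was reversed to a log2 change of -0.089 with mutant clusters weighted as in WT, and was 0.29 as a mean over cells.

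With TMM factors the genotype log2 changes over all cells were 0.079 for *Krt7*, 0.0080 for *Krt18* and -0.0058 for *Krt19*, and in ML 0.14 for *Krt7* and 0.045 for *Krt18*. With means over cells they were 0.081 for *Krt7* and 0.022 for *Krt18* over all cells, 0.13 for *Krt19* in LI and 0.076 for *Krt18* in ML. With a denominator free of keratin, mitochondrial and ribosomal protein genes *Krt18* was at 0.051 over all cells and 0.076 in ML, and with reweighted clusters at 0.053 over all cells and 0.057 in ML, where *Krt7* was at 0.12. Reweighting within LP and ML and the sum of *Krt8* with *Krt8-ps* were chosen after seeing the data.

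For LP over ML, TMM factors gave -2.69 for *Krt7*, -1.46 for *Krt8*, -1.20 for *Krt18*, -1.80 for *Krt19* and 6.37 for *Krt23*. Without the highest doublet scores *Krt7* was at -2.73 and *Krt19* at -1.64, and with means over cells at -2.66 and -1.57. Without clusters 2, 5 and 6 *Krt18* was at -0.83 and *Krt23* at 6.85.

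Counts of called genes moved by over 1.5 times with the limits. Over all cells, 725 genes were called mutant over WT, against 2716 at the limit of 25%, 108 at 2-fold, 1371 with at least 20 UMIs and 412 with at least 100. In LP these counts were 318, 1360, 28, 845 and 128, in LI 406, 1649, 52, 965 and 187, and in ML 672, 2556, 113, 1298 and 384. LP over ML gave 4817, against 2911 at 2-fold and 7262 with no rule on libraries. At 25%, at 2-fold and with no rule on libraries, cluster 2 over 1 gave 2200, 473 and 2616 against 1075, cluster 6 gave 3145, 717 and 3711 against 1608, and cluster 11 gave 1772, 468 and 2849 against 876. Shares of cells with a UMI followed the thinning depth, and those of *Krt8* over all cells were 30.9% in WT and 40.4% in the mutant at 500 UMIs.

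*Krt23* in ML and the rare cells rested on few UMIs, so differences there were not detectable at this depth.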
